A study of Mus musculus with 12 samples.

Results

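The 40 genes described here encode enzymes, membrane proteins and regulators of the lysosome. They were chosen by symbol, as genes of lysosomal function. All 40 were among the 24346 genes of the deposited tables, and all 40 passed the filter on low counts that left 17380 genes for testing. RNA was measured in 12 libraries, in 4 groups of 3, prepared from midbrain of C57BL/6 mice. The groups were sampled 12 weeks after G51D α-synuclein preformed fibrils, 12 weeks after saline, 7 weeks after the fibrils and 7 weeks after saline. The injections went into the substantia nigra on both sides, with fibrils given as 20 µg (5 µg/µL). G51D is a variant of α-synuclein linked to familial Parkinson's disease, and preformed fibrils seed aggregation of the protein already present in neurons. In every group the cells were sorted on hKO1, a red-orange fluorescent protein that marks dopaminergic neurons in this study, and the labels set the groups apart by injectate and time alone. The age and sex of the mice, the promoter that drives hKO1 and the number of mice behind a library are not stated in the sources used. The p-values below therefore measure the spread between libraries, which may be technical.

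Lysosomes break down proteins, lipids and sugar chains that reach them by endocytosis and autophagy. Soluble hydrolases work in the acidic lumen, and heavily glycosylated membrane proteins line the inside of the limiting membrane. Many of these genes are targets of TFEB, a transcription factor that enters the nucleus when the kinase mTORC1 is inactive and binds E-box motifs near gene starts. Loss of single hydrolases causes lysosomal storage diseases, and cathepsin D, which degrades α-synuclein, links the pathway to Parkinson's disease.

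The libraries held 2506730 to 5533324 assigned fragments. Markers of other cells were abundant: those of oligodendrocytes, which make myelin, summed to 28646 to 41427 CPM (counts scaled to library size with TMM) in synuclein libraries at 12 weeks and 26925 to 47107 CPM in saline libraries at 12 weeks. At 7 weeks the same 15 markers summed to 18113 to 21655 CPM in synuclein libraries and 17506 to 27338 CPM in saline libraries. The 12 endothelial markers summed to 9998 to 25765 CPM over all libraries. The 15 markers of dopaminergic neurons summed to 678 to 2943 CPM, with Lmx1b and Foxa2 listed at 0 in at least 1 library each. Replicates 1 and 2 of the synuclein group at 12 weeks lay apart from the other libraries, on the principal components that held 13.5% and 27.9% of the variance. In replicate 2 of that group 17409 genes were detected by 1 fragment or more, whereas 19960 to 21135 were detected in each of the others. Replicate 3 of the synuclein group at 7 weeks had the highest sums of 18 microglial markers, at 558 CPM against 82.4 to 248 CPM in the others, and of 8 pericyte and smooth muscle markers, at 999 CPM. In RNA from a pool of cells, fewer cells of a type and less RNA per cell cannot be told apart, and this holds for every value below.

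Together the 40 genes took 4728 to 6810 CPM of a library. Their summed level averaged 6178 ± 289 CPM in synuclein libraries and 5981 ± 1104 CPM in saline libraries at 12 weeks (SD, n = 3 each). At 7 weeks it averaged 5520 ± 678 CPM in synuclein libraries and 5588 ± 414 CPM in saline libraries (SD, n = 3 each). The lowest sum belonged to replicate 2 of the saline group at 12 weeks, in which 11 of the 40 genes had their lowest value. The highest belonged to replicate 1 of the same group, in which 8 genes had their highest value, so the widest gap between any libraries lay within a single group.

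Per unit length, the most abundant transcript was Lamp1, a glycoprotein that coats the inner face of the lysosomal membrane, at 536 ± 123 FPKM over the 12 libraries (SD; fragments scaled for gene length and library size). Ctsd, the aspartic protease cathepsin D, followed at 271 ± 85.3 FPKM. Psap, the precursor of the saposins that present sphingolipids to their hydrolases, stood at 199.6 ± 50.9 FPKM. These neighbours in the order overlapped in their ranges, Lamp1 with 401 to 763 FPKM, Ctsd with 185 to 525 FPKM and Psap with 126 to 303 FPKM. Cd63, a tetraspanin of lysosomes and late endosomes, averaged 167 ± 73.9 FPKM. Laptm4a, a small membrane protein of the same compartments, averaged 166 ± 29.2 FPKM, and the order of Psap, Cd63 and Laptm4a is not resolved by their spread. At the other end were Gla, α-galactosidase A, at 2.32 ± 1.13 FPKM, and Galc, which splits the myelin lipid galactosylceramide, at 2.98 ± 1.32 FPKM. Gla rested on 7 to 42 fragments a library, and Galc on 12 to 101. Lamp1 rested on 2405 to 5590 fragments.

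**Figure D1:**
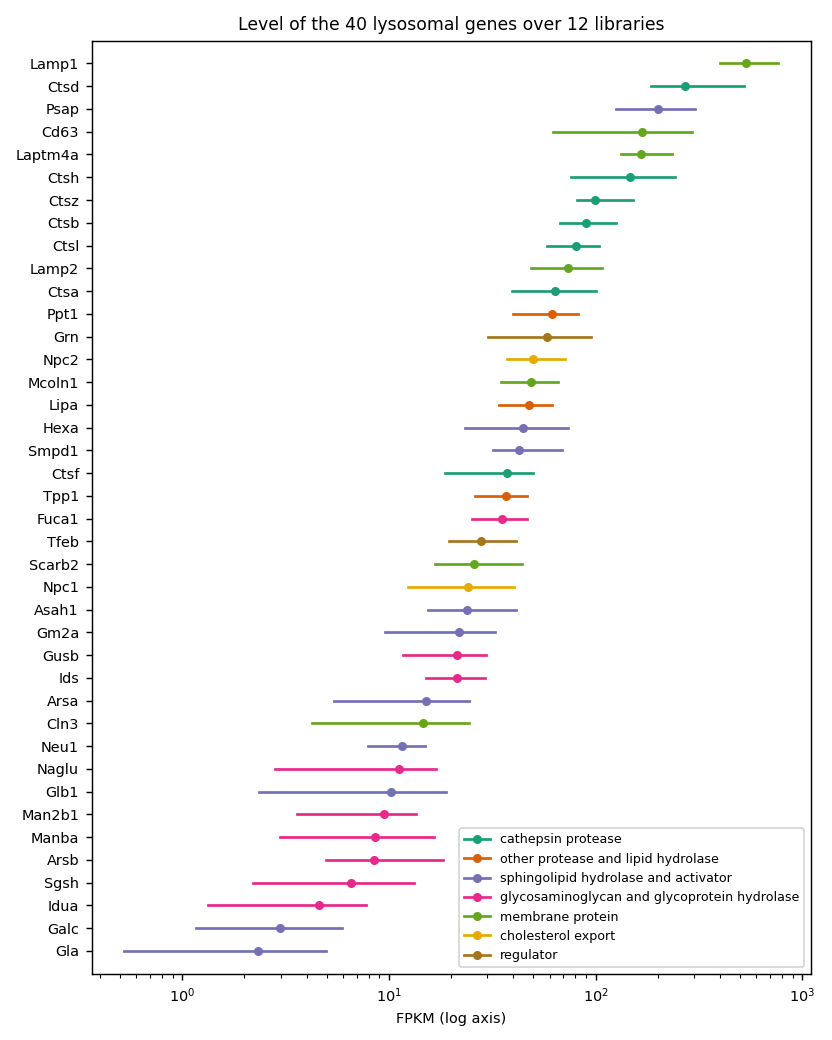
Level of each of the 40 genes in FPKM (fragments scaled for gene length and library size, log axis). The points are means over 12 libraries, the lines run from the lowest to the highest library, and colours give the role. Lamp1 is highest at 536 FPKM and Gla lowest at 2.32 FPKM, and most neighbours overlap.

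Next in level were 4 of the 5 cysteine cathepsins, proteases of bulk degradation. Ctsh averaged 147 FPKM, Ctsz 99.6 FPKM, Ctsb 90.3 FPKM and Ctsl 80.2 FPKM. Ctsf, the fifth, was lower at 37.1 FPKM and ranked 19 of the 40. Lamp2, the partner of Lamp1 and the receptor of chaperone-mediated autophagy, averaged 73.2 FPKM. The hydrolases of glycosaminoglycans and glycoprotein sugars were lower, between 35.2 FPKM for Fuca1, which removes fucose, and 4.59 FPKM for Idua, which acts on heparan and dermatan sulfate. Tfeb averaged 27.9 ± 6.03 FPKM. Grn, the precursor of the lysosomal granulins, averaged 58.2 ± 16.7 FPKM.

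The tables assign 12 of the 40 genes to a locus that also holds another gene, whose fragments may not be fully told apart. These are Ctsa, Ctsb, Ctsz, Ppt1, Arsa, Glb1, Sgsh, Idua, Arsb, Scarb2, Cln3 and Npc1. Idua shares its interval (chromosome 5, 108629810 to 108685446) with Dgkq, Slc26a1 and Tmem175, the last of which encodes a lysosomal potassium channel. Arsa shares chromosome 15, 89472476 to 89484850, with C230037L18Rik. Among the genes alone at their locus were Lamp1 (chromosome 8, 13159135 to 13175338), Cd63 (chromosome 10, 128908919 to 128912818), Gm2a (chromosome 11, 55097985 to 55113028) and Psap (chromosome 10, 60277628 to 60302600). Ctsd lay on chromosome 7, 142375916 to 142387870. These positions are those of the deposited tables, counted from 1, and no source used here names their build; all 40 overlapped the gene of the same symbol in RefSeq for GRCm38.p6.

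TFEB binds the E-box core CACGTG, and this core is the sequence feature that many lysosomal genes share. In RefSeq promoters of GRCm38.p6, taken as 250 bases before to 50 bases after a gene start, 36 of the 40 genes could be looked up. The core, which reads the same on both strands, was present in 12 of the 36 genes (33.3%), against 8.09% of 27025 genes in the table (7.15% of 32851 promoters). The longer form GTCACGTG, or CACGTGAC on the other strand, which contains the core, was present in 10 of 36 (27.8%), against 2.55% of genes (2.25% of promoters). The form TCACGTGA, which also contains the core and is its own reverse complement, was present in 5 of 36 (13.9%), against 1.12% of genes (0.974% of promoters). Genes with the longer form were Arsa, Cln3, Ctsa, Ctsd, Gla, Glb1, Lamp1, Mcoln1, Naglu and Sgsh, and Ctsf and Ctsl had the core alone. The 130 bases just before the RefSeq start are shown for 4 genes with the longer form and for Cd63, which has none in its RefSeq promoter. Cd63 is shown because it and Lamp1 are the membrane proteins described most below. Capitals mark CACGTG. The windows are chr8:13159031-13159160 (plus strand), chr8:3500389-3500518 (plus strand), chr7:142387828-142387957 (minus strand), chr2:164833643-164833772 (plus strand, 1 of 2 starts in the table) and chr10:128909215-128909344 (plus strand). The RefSeq starts differ from the deposited ones for Lamp1, Ctsd, Ctsa and Cd63. The Cd63 window lies inside the deposited Cd63 gene (128908919 to 128912818), so the bases before the deposited Cd63 start were not searched.
Lamp1: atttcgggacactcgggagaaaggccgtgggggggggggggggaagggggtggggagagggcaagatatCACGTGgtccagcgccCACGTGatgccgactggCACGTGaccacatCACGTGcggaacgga
Mcoln1: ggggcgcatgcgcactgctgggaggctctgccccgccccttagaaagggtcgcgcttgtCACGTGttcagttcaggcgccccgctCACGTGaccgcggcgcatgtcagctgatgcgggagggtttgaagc
Ctsd: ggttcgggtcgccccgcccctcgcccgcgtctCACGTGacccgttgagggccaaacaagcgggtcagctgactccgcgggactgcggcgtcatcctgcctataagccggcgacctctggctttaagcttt
Ctsa: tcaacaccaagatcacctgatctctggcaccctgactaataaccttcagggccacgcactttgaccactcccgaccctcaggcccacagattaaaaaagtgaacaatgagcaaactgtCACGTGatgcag
Cd63: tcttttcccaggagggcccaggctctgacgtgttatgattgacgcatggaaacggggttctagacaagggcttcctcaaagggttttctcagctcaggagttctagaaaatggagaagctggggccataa
Lamp1 holds 4 cores within 61 bases of its start. Mcoln1, the calcium channel TRPML1 of the lysosomal membrane, holds 2, at 71 and 45 bases before the start. Ctsd holds 1 core in the window shown and another at 245 bases before the start. A match is a description of these letters and not a measured binding site.

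Synuclein fibrils against saline at 7 weeks, the first comparison the design implies, moved none of the 40 genes past the test. None was called by edgeR at an adjusted p under 0.05, and the background over all 17380 genes was also 0%. Even without adjustment, 0 of the 40 genes were higher at p under 0.05, against 1.01% of all genes, and 0 were lower, against 0.633%. The median log2 fold over the 40 genes was −0.06, beside 0.01 over all genes, with 15 folds above 0 and 25 below. For 29 of the 40 genes, a count, the 95% interval lay within a 2-fold change in either direction, which was so for a smaller share, 29.8%, of all genes. The 40 genes were measured more precisely, with a median standard error of the log2 fold of 0.31, against 0.52 over all genes. The larger share goes with this smaller error, which holds both counting depth and spread between libraries. Whether these genes were steadier was not tested. A change of more than 2-fold lies outside the interval of these 29 genes. How small a change lies outside differs by gene, with a log2 interval of −0.41 to 0.53 for Lipa and −0.65 to 0.33 for Lamp1. Of the 17 microglial markers tested, 14 had folds above 0 at 7 weeks, with a median log2 fold of 0.87. The full list of 18 summed to 155 to 558 CPM in synuclein libraries and 100.1 to 219.5 CPM in saline libraries at 7 weeks, and its defining markers P2ry12, Tmem119 and Trem2 were listed at 0 in at least 1 of the 12 libraries. All 12 endothelial markers had folds below 0 at 7 weeks, with a median log2 fold of −0.24. All 8 ependymal markers, of cells that line the ventricles, had folds above 0, with a median of 0.86. No other marker list had all its folds on the same side of 0. The part of these cells in the values below was not tested.

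Lamp1 had 993, 853 and 892 CPM in synuclein libraries at 7 weeks, against 1055, 982 and 1019 CPM in saline libraries at 7 weeks (replicates 1, 2 and 3, as in all such lists below). The groups overlapped, and the log2 fold was −0.16 ± 0.23 (SE; edgeR adjusted p = 1). Psap had 480.2, 314 and 472 CPM in synuclein libraries and 371, 489.8 and 413 CPM in saline libraries. Its groups covered much the same range, with a log2 fold of −0.01 ± 0.26.

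Ctsd had 437, 468 and 951 CPM in synuclein libraries at 7 weeks, against 418, 526 and 513 CPM in saline libraries. A single synuclein library was far above the other 5, and the groups overlapped. The log2 fold was 0.35 ± 0.28 (edgeR adjusted p = 1), and without that library, replicate 3, it was −0.11. That library also had the highest microglial and pericyte marker sums given above; the part of those cells in the Ctsd value was not tested. Of the 7 cathepsins, only Ctsd and Ctsz had their highest value of all 12 libraries in it. Among the libraries at 7 weeks alone, Ctsa, at 236 CPM, and Ctsb, at 531 CPM, were highest in it as well.

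Among the regulators, Tfeb had 51.8, 65 and 45.1 CPM in synuclein libraries at 7 weeks, against 42.1, 60.6 and 68.3 CPM in saline libraries. The 3 values of each group were interleaved, and the log2 fold was −0.08 ± 0.29. Mcoln1 had 80.4, 107 and 78.6 CPM in synuclein libraries and 75.8, 93.2 and 109 CPM in saline libraries, again interleaved, with a log2 fold of −0.07 ± 0.25. Grn had 102, 104 and 171 CPM in synuclein libraries and 66.4, 147 and 210.1 CPM in saline libraries. The saline values spanned more than the synuclein values, and the log2 fold was −0.17 ± 0.33.

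Fuca1 had 83, 61 and 62.6 CPM in synuclein libraries at 7 weeks, against 97.6, 105 and 72 CPM in saline libraries. The highest synuclein value lay above the lowest saline value, so the groups overlapped, and the log2 fold was −0.41 ± 0.25 (edgeR adjusted p = 1). Ppt1, which removes palmitate from proteins, had 161, 99.6 and 153 CPM in synuclein libraries and 176, 134 and 148 CPM in saline libraries. Its log2 fold was −0.15 ± 0.29. Npc2, the soluble carrier that hands cholesterol to the membrane protein Npc1, had 138, 145 and 154 CPM in synuclein libraries and 133, 149 and 168 CPM in saline libraries, with a log2 fold of −0.04 ± 0.24. Both genes varied as much within groups as between them.

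By role at 7 weeks, the median log2 fold was 0.21 over the 7 cathepsins (−0.13 to 0.35) and −0.13 over the 7 membrane proteins (−0.44 to 0.02). It was −0.05 over the 10 sphingolipid hydrolases and activators and 0.04 over the 9 hydrolases of glycosaminoglycans and glycoprotein sugars. The 3 other protease and lipid hydrolases, Tpp1, Ppt1 and Lipa, had a median of −0.08. The cathepsin median was −0.04 without synuclein replicate 3, the library with the high Ctsd value and the high microglial and pericyte sums, so its direction rests on that library. Over the other settings tried, the role medians ran from −0.04 to 0.31 for the cathepsins, −0.22 to −0.09 for the membrane proteins, −0.15 to 0.09 for the sphingolipid group, −0.08 to 0.16 for the glycosaminoglycan and glycoprotein group and −0.21 to 0.08 for Tpp1, Ppt1 and Lipa. No gene of any role passed the test.

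At 12 weeks after injection the 40 genes were again not called: 0 of 40 passed in edgeR, and 0% of all genes did. Without adjustment 1 gene, Idua, was higher after synuclein at p under 0.05, against 2.27% of all genes, and 1, Arsa, was lower, against 3.3%. A single gene in 40 is close to both of these shares. The median log2 fold was 0.03 over the 40 genes and −0.04 over all genes, with 21 folds above 0 and 19 below. The interval lay within 2-fold for 25 of the 40 genes, a larger share than the 25.6% of all genes, with median standard errors of 0.31 and 0.53. All 12 endothelial markers had folds above 0 at 12 weeks, with a median log2 fold of 0.32, and 13 of 17 microglial markers had folds below 0, with a median of −0.92. The endothelial list summed to 11221 to 18367 CPM in synuclein libraries and 9998 to 13901 CPM in saline libraries at 12 weeks, and the microglial list summed to 82.4 to 141 CPM in synuclein libraries and 126 to 248 CPM in saline libraries. Their part in the values below was not tested.

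**Figure D2:**
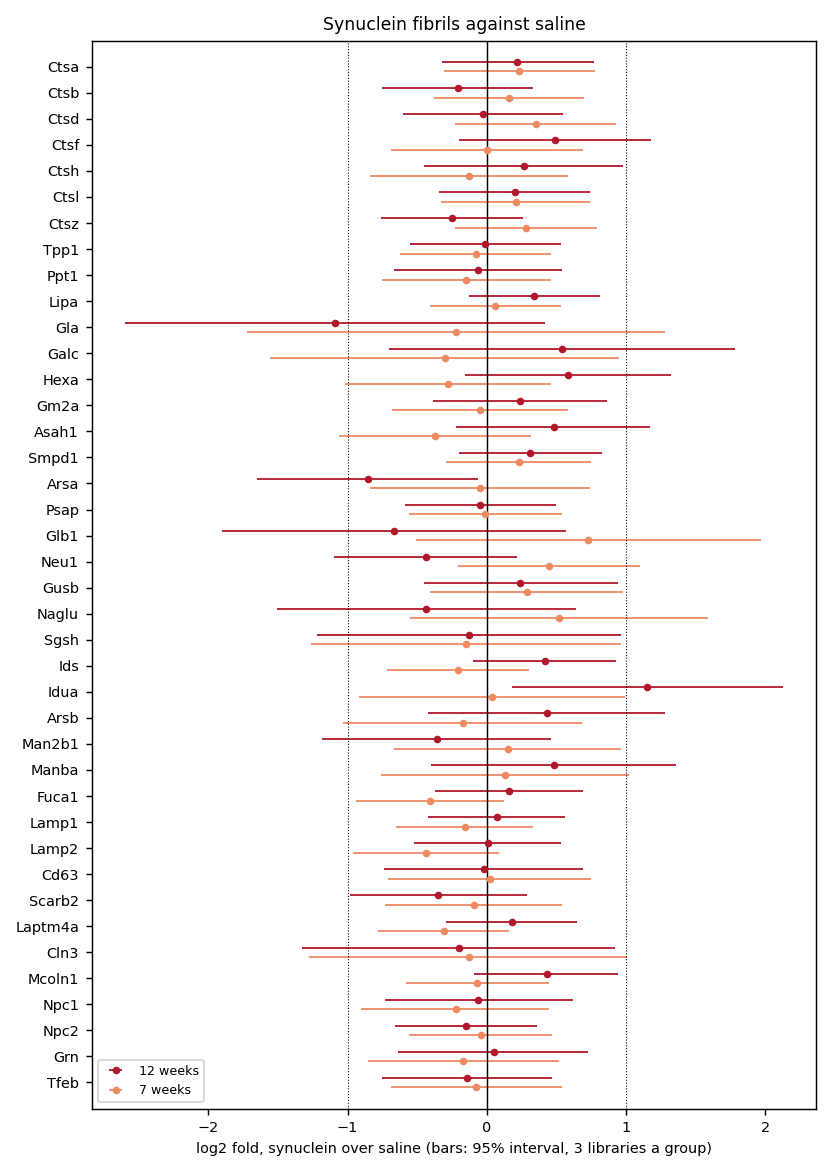
Log2 fold of synuclein over saline for the 40 genes at 12 weeks (dark red) and at 7 weeks (orange), ordered by role. Bars are 95% intervals from the edgeR fit with 3 libraries a group, and dotted lines mark a 2-fold change. The bars of Idua and Arsa at 12 weeks are the only ones that do not cross 0, and neither gene passed adjustment.

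Idua had 18.1, 18.1 and 33.7 CPM in synuclein libraries at 12 weeks, against 8.12, 5.98 and 17.2 CPM in saline libraries at 12 weeks. All 3 synuclein libraries lay above all 3 saline libraries, by a narrow margin at the nearest pair. The log2 fold was 1.15 ± 0.46 (edgeR unadjusted p = 0.023, adjusted p = 0.89). At 7 weeks Idua was even, with 21.1, 26 and 23.7 CPM in synuclein libraries and 21.8, 23.1 and 24.1 CPM in saline libraries. The 3 saline libraries at 12 weeks stood below the other 9 libraries, and the log2 fold was −1.13 ± 0.46 for 12 over 7 weeks after saline (edgeR unadjusted p = 0.025, adjusted p = 0.58). Idua rested on 16 to 139 fragments a library at a locus shared with 3 other genes.

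Arsa, the sulfatase that removes sulfate from the myelin lipid sulfatide, had 36.1, 17.8 and 47.6 CPM in synuclein libraries at 12 weeks, against 61.5, 38.2 and 83.8 CPM in saline libraries at 12 weeks. The groups overlapped, and the lowest value was that of synuclein replicate 2, the library with the fewest genes detected. Arsa had a log2 fold of −0.85 ± 0.38 (edgeR unadjusted p = 0.038, adjusted p = 0.89). It was −0.35 without synuclein replicates 1 and 2, which left a single synuclein library at 12 weeks.

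Ids, which removes sulfate from heparan and dermatan sulfate, had 101, 104 and 121 CPM in synuclein libraries at 12 weeks, against 84.4, 84.3 and 75.2 CPM in saline libraries. All synuclein values were above all saline values, and the log2 fold was 0.42 ± 0.24 (edgeR unadjusted p = 0.11, adjusted p = 0.9). At 7 weeks Ids had 136, 109 and 79.7 CPM in synuclein libraries and 145, 123 and 107 CPM in saline libraries. There the groups overlapped, and the log2 fold was −0.21 ± 0.24.

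Mcoln1 had 88.9, 97.4 and 121 CPM in synuclein libraries at 12 weeks, against 66.1, 78.6 and 83.8 CPM in saline libraries. The groups did not overlap, and the log2 fold was 0.43 ± 0.25 (edgeR unadjusted p = 0.1, adjusted p = 0.9). Its regulator Tfeb had 49.1, 67.7 and 68.3 CPM in synuclein libraries and 56.8, 57.8 and 89.6 CPM in saline libraries. Those groups overlapped, with a log2 fold of −0.14 ± 0.29 (edgeR adjusted p = 0.96). Among other members at 12 weeks, Lipa was higher after synuclein without overlap (mean 132 against 104 CPM) and Ctsz lower (mean 112 against 133 CPM). How many of all genes separated without overlap was not counted, here or in the comparisons below.

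The abundant genes were close to even at 12 weeks. Lamp1 had 1599.7, 1181 and 1229.8 CPM in synuclein libraries, against 1613, 901 and 1302 CPM in saline libraries, with a log2 fold of 0.07 ± 0.23. Ctsd had 386, 451 and 432 CPM in synuclein libraries and 457, 333 and 501 CPM in saline libraries, with a log2 fold of −0.03 ± 0.28. Psap had 571, 632 and 478 CPM in synuclein libraries and 769, 387 and 582 CPM in saline libraries, with a log2 fold of −0.05 ± 0.26. For all 3 genes the saline libraries spread wider than the synuclein libraries and enclosed them.

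Grn had 116, 139 and 119 CPM in synuclein libraries at 12 weeks and 105, 125 and 133 CPM in saline libraries, with a log2 fold of 0.05 ± 0.33. Npc2 had 164, 135 and 175 CPM in synuclein libraries and 182, 119 and 226 CPM in saline libraries, with a log2 fold of −0.15 ± 0.24. Both genes overlapped between the groups. Ppt1 had 175, 106 and 149 CPM in synuclein libraries and 198, 94.6 and 157 CPM in saline libraries, with a log2 fold of −0.06 ± 0.29. Fuca1 had 111, 91.6 and 77.9 CPM in synuclein libraries and 97.4, 78.1 and 75.2 CPM in saline libraries, with a log2 fold of 0.16 ± 0.25. These overlapped as well.

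By role at 12 weeks, the median log2 fold was 0.24 over the hydrolases of glycosaminoglycans and glycoprotein sugars (−0.44 to 1.15) and 0.20 over the cathepsins (−0.25 to 0.49). It was 0.09 over the sphingolipid hydrolases and activators (−1.09 to 0.58), 0.01 over the membrane proteins and −0.01 over the other protease and lipid hydrolases. The lowest of these, −1.09, belonged to Gla, the least abundant gene. Under the other settings the cathepsin median ran from 0.01 to 0.30, and that of the sphingolipid group from −0.12 to 0.29. The lowest cathepsin median came without synuclein replicates 1 and 2, with a single synuclein library left. The membrane proteins ran from −0.12 to 0.13, Tpp1, Ppt1 and Lipa from −0.09 to 0.20, and the glycosaminoglycan and glycoprotein group from 0.17 to 0.38. A p above the threshold does not show that fibrils left these genes unchanged, since the intervals of 15 genes reached past 2-fold.

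Whether the fibril effect differed between the times was tested as the 12-week fold minus the 7-week fold. None of the 40 genes passed in edgeR, where 0% of all genes did. At unadjusted p under 0.05 there were 0 genes with a higher fold at 12 weeks, against 1.74% of all genes, and 0 with a lower fold, against 2.74%. The median difference was 0.08 over the 40 genes and −0.05 over all genes. The interval lay within 2-fold for 10 of the 40 genes, a larger share than the 7.22% of all genes. The median standard errors were 0.44 and 0.74, so this comparison was the least precise. All 12 endothelial markers had a difference above 0, with a median of 0.55. Of 17 microglial markers, 16 had a difference below 0, with a median of −1.77. The part of these cells in the values below was not tested.

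The smallest p-values in it belonged to 3 hydrolases. Neu1, the sialidase, had 29.9, 45.5 and 34.3 CPM in synuclein libraries and 52.8, 39.6 and 56.6 CPM in saline libraries at 12 weeks. At 7 weeks it had 54.7, 47.2 and 53.7 CPM in synuclein libraries and 52.9, 31.2 and 30.1 CPM in saline libraries. The log2 folds were −0.44 ± 0.31 at 12 weeks and 0.45 ± 0.31 at 7 weeks, and their difference was −0.89 ± 0.44 (edgeR unadjusted p = 0.062, adjusted p = 0.95).

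Asah1, the acid ceramidase, had 34.7, 62.5 and 64.3 CPM in synuclein libraries and 39.4, 32.5 and 43.9 CPM in saline libraries at 12 weeks. At 7 weeks it had 56.7, 51.5 and 35.7 CPM in synuclein libraries and 48.1, 50.2 and 87.5 CPM in saline libraries. The groups overlapped at both times. The folds of 0.48 ± 0.33 and −0.37 ± 0.33 differed by 0.85 ± 0.47 (edgeR unadjusted p = 0.086, adjusted p = 0.95). For Ids the difference was 0.62 ± 0.34 (edgeR unadjusted p = 0.086, adjusted p = 0.95), and for Idua it was 1.11 ± 0.65 (edgeR adjusted p = 0.95).

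The design also allows 12 weeks to be set against 7 weeks within a treatment, and over both treatments together. These 3 comparisons share libraries, so their values are given side by side and are not separate evidence. After synuclein, 0 of the 40 genes were called in edgeR, against 0% of all genes. At unadjusted p under 0.05, 4 of the 40 were higher at 12 weeks, against 3.31% of all genes, and 0 were lower, against 4.28%. After saline, again 0 were called, against 0% of all genes. There 1 of the 40 was higher at unadjusted p under 0.05, against 3.49%, and 4 were lower, against 3.92%.

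Over both treatments 0 of the 40 genes were called, against 0.834% of all genes, or 145 genes. At unadjusted p under 0.05, 5 of the 40 were higher at 12 weeks (4.53% of all genes were) and 2 were lower (5.29% of all genes were). The 5 were Cd63, Npc1, Gm2a, Lamp1 and Psap, and the 2 were Lipa and Ctsh. The median log2 fold of the 40 genes was 0.15 after synuclein, 0.18 after saline and 0.06 over both, beside −0.06, 0.01 and −0.03 over all genes. The interval lay within 2-fold for 22, 21 and 28 of the 40 genes, and for smaller shares, 24.5%, 23% and 42.8%, of all genes. The median standard errors were 0.31, 0.31 and 0.22 over the 40 genes and 0.52, 0.52 and 0.37 over all genes.

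**Figure D3:**
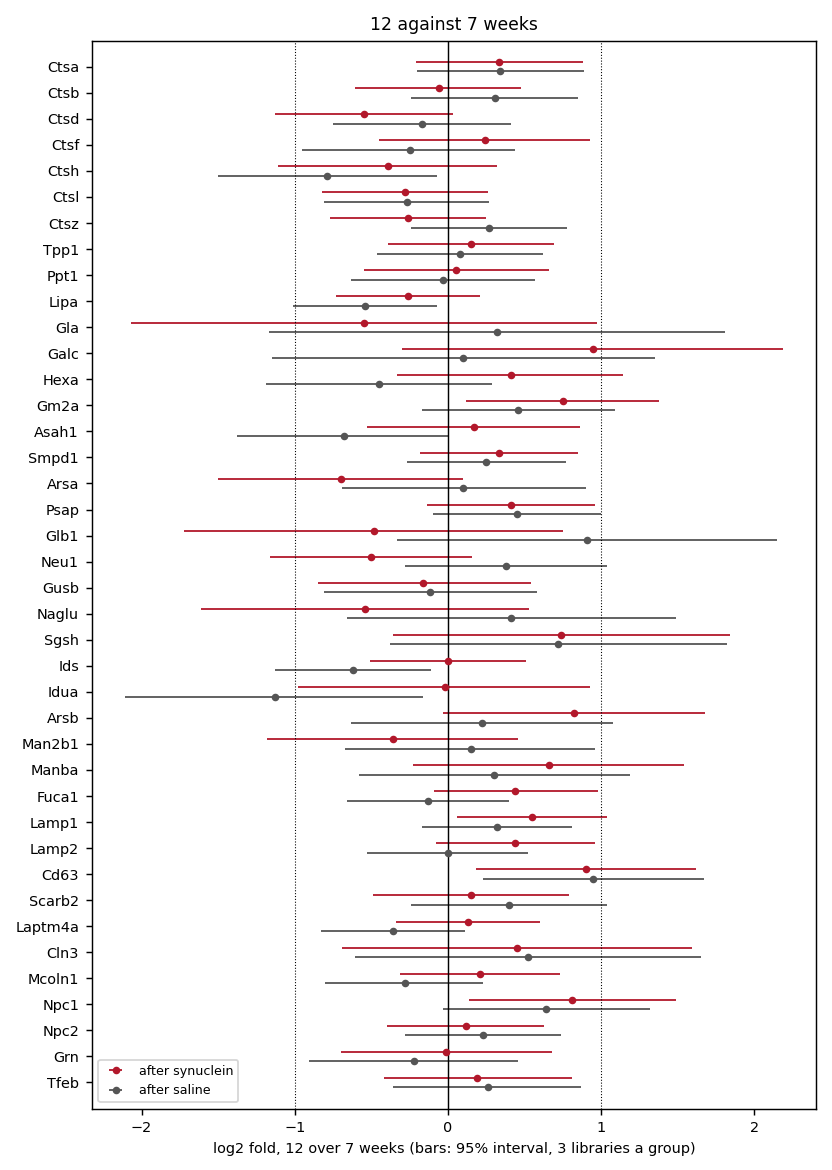
Log2 fold of 12 over 7 weeks for the 40 genes after synuclein (red) and after saline (grey), ordered by role. Bars are 95% intervals from the edgeR fit with 3 libraries a group, and dotted lines mark a 2-fold change. Cd63 lies at 0.90 after synuclein and at 0.95 after saline. The value after synuclein was 0.12 without synuclein replicates 1 and 2 at 12 weeks, which left a single library in that group.

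Cd63 had the largest log2 fold over both treatments and the smallest p. It had 207, 166 and 89 CPM at 12 weeks and 97.8, 44.6 and 105 CPM at 7 weeks after synuclein. It had 186, 107 and 177 CPM at 12 weeks and 94.2, 83.9 and 65.7 CPM at 7 weeks after saline. After saline the 2 times did not overlap, and after synuclein only replicate 3 at 12 weeks fell inside the 7-week range. The log2 fold was 0.90 ± 0.34 after synuclein, 0.95 ± 0.34 after saline and 0.93 ± 0.24 over both (edgeR adjusted p = 0.53, 0.48 and 0.092). Without that synuclein library the value over both was 1.06 with an edgeR adjusted p of 0.037, and DESeq2 on all libraries gave 0.95 with an adjusted p of 0.013. Synuclein replicates 1 and 2 at 12 weeks, the libraries that lay apart, held the values of 207 and 166 CPM. Leaving them out kept a single library in that group, replicate 3 at 89 CPM. The log2 fold was then 0.12 after synuclein and 0.53 over both. The fold after saline ran from 0.83 to 1.15 over all settings tried. The fold after synuclein thus rests on those 2 libraries, as the library kept had the lowest value of its group. A call over both treatments depends on the tool and on single libraries.

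Npc1, which moves cholesterol out through the lysosomal membrane, had 207, 108 and 143 CPM at 12 weeks and 99.2, 69 and 92.3 CPM at 7 weeks after synuclein. Its values after saline were 169, 118 and 188 CPM at 12 weeks and 155, 84.2 and 64.9 CPM at 7 weeks. The times did not overlap after synuclein and overlapped after saline through replicate 1 at 7 weeks. Its log2 fold was 0.81 ± 0.32 after synuclein, 0.64 ± 0.32 after saline and 0.73 ± 0.23 over both (edgeR adjusted p = 0.57, 0.7 and 0.18). Without saline replicate 1 at 7 weeks it was 0.96 over both, with an edgeR adjusted p of 0.044. Its partner Npc2 had a log2 fold of 0.17 ± 0.17 over both (edgeR adjusted p = 0.86).

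Gm2a, the activator that presents the ganglioside GM2 to β-hexosaminidase, had 136, 110.0 and 113 CPM at 12 weeks and 74.6, 40.1 and 99.1 CPM at 7 weeks after synuclein. After saline it had 128, 96.6 and 81 CPM at 12 weeks and 66.7, 66.6 and 88.7 CPM at 7 weeks. All synuclein libraries at 12 weeks were above those at 7 weeks, and the saline libraries overlapped. Its log2 fold was 0.75 ± 0.30 after synuclein, 0.46 ± 0.30 after saline and 0.60 ± 0.21 over both (edgeR adjusted p = 0.57, 0.81 and 0.27).

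Lamp1 was at 1599.7, 1181 and 1229.8 CPM at 12 weeks and 993, 853 and 892 CPM at 7 weeks after synuclein, without overlap. After saline it was at 1613, 901 and 1302 CPM at 12 weeks and 1055, 982 and 1019 CPM at 7 weeks, where replicate 2 at 12 weeks was the lowest of the 6. For Lamp1 the log2 fold was 0.55 ± 0.23 after synuclein, 0.32 ± 0.23 after saline and 0.44 ± 0.16 over both (edgeR adjusted p = 0.59, 0.84 and 0.32). Psap had a log2 fold of 0.41 ± 0.26 after synuclein, 0.45 ± 0.26 after saline and 0.43 ± 0.18 over both (edgeR adjusted p = 0.77, 0.77 and 0.42). Its libraries overlapped between the times in both treatments, and without synuclein replicates 1 and 2 at 12 weeks the Psap fold after synuclein was 0.19. Without the same libraries the folds after synuclein were 0.72 for Npc1, 0.67 for Gm2a and 0.43 for Lamp1. A single synuclein library stood for 12 weeks in all these values.

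The oligodendrocyte markers moved the same way: all 15 had a fold above 0 for 12 over 7 weeks over both treatments, with a median log2 fold of 0.89, and 7 of the 15 were called higher in edgeR. All 8 ependymal markers, of the cells that line the ventricles, also had folds above 0, with a median of 2.38 after synuclein, 2.90 after saline and 2.54 over both, and none was called. They summed to 11.8 to 580.2 CPM in synuclein libraries and 47.4 to 289 CPM in saline libraries at 12 weeks, and 16 to 55.7 CPM in synuclein libraries and 11.2 to 19.3 CPM in saline libraries at 7 weeks. Foxj1, Tmem212, Dynlrb2, Enkur and Mia of that list were at 0 in at least 1 library. Markers of neurons went the other way, with 13 of 14 dopaminergic markers below 0 and a median of −1.25. Their summed level was 783 to 947 CPM in synuclein libraries and 678 to 1289 CPM in saline libraries at 12 weeks, and 841 to 2943 CPM in synuclein libraries and 1570.3 to 2529.8 CPM in saline libraries at 7 weeks. The part of a shift in the cells sorted in the higher Cd63, Npc1, Gm2a, Lamp1 and Psap values was not tested.

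**Figure D4:**
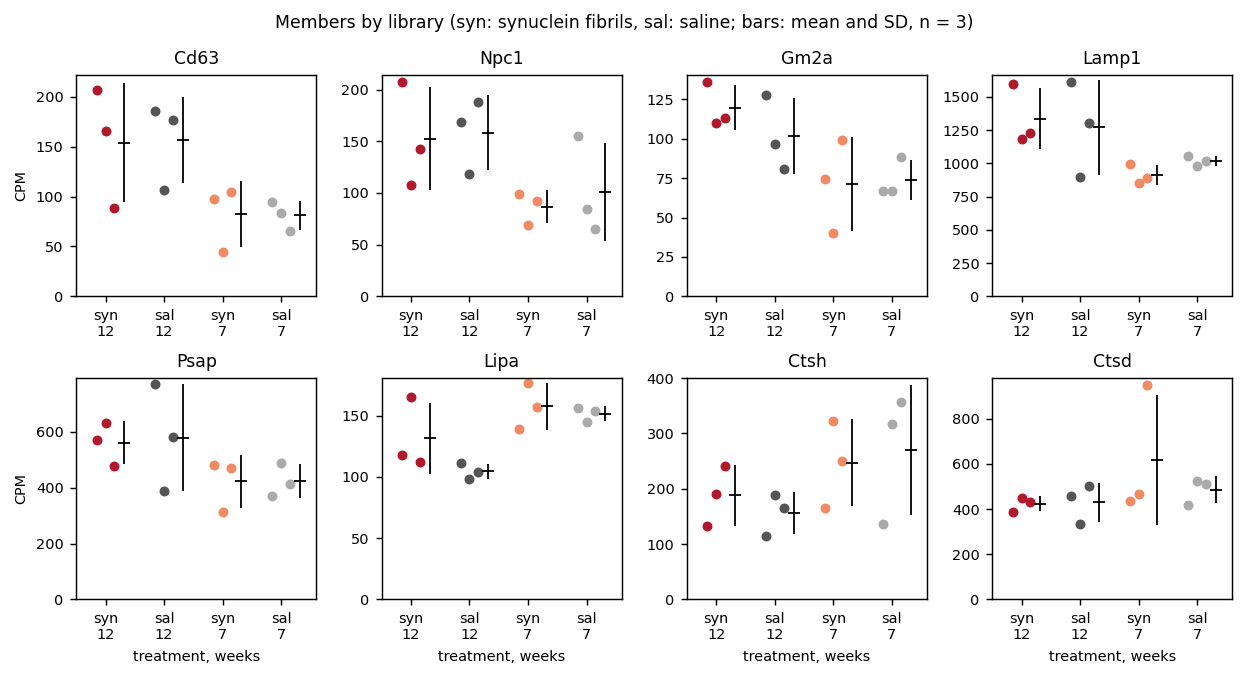
CPM of 8 genes in each library, with the synuclein and saline groups at 12 weeks left of those at 7 weeks (syn, synuclein; sal, saline). Points are libraries, replicates 1 to 3 from left to right, and the bar beside them is the mean and SD (n = 3). Cd63, Npc1 and Gm2a are mostly higher at 12 weeks, Lipa and Ctsh mostly lower, and 1 Ctsd value of 951 CPM stands alone.

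On the lower side, Lipa, the acid lipase that frees cholesterol from its esters, had 118, 165 and 112 CPM at 12 weeks and 139, 177 and 157 CPM at 7 weeks after synuclein. After saline it had 111, 98.3 and 104 CPM at 12 weeks and 156, 145 and 154 CPM at 7 weeks. The saline libraries of the 2 times were well apart, with little spread inside each group, and the synuclein libraries overlapped. For Lipa the log2 fold was −0.26 ± 0.22 after synuclein, −0.54 ± 0.22 after saline and −0.40 ± 0.16 over both (edgeR adjusted p = 0.85, 0.59 and 0.36).

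Ctsh, an aminopeptidase cathepsin, had 132, 189.8 and 242 CPM at 12 weeks and 166, 323 and 251 CPM at 7 weeks after synuclein. After saline it had 114, 188 and 166 CPM at 12 weeks and 136, 317 and 356 CPM at 7 weeks. In all 4 groups replicate 1 was the lowest library, and the times overlapped in both treatments. For Ctsh the log2 fold was −0.39 ± 0.34 after synuclein, −0.79 ± 0.34 after saline and −0.59 ± 0.24 over both (edgeR adjusted p = 0.85, 0.62 and 0.39). Without synuclein replicates 1 and 2 at 12 weeks, a single library was left in that group. The Ctsh fold was then −0.02 after synuclein and −0.41 over both.

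After saline, Ids and Idua were lower at 12 weeks as well. Ids had 84.4, 84.3 and 75.2 CPM at 12 weeks and 145, 123 and 107 CPM at 7 weeks, without overlap, and a log2 fold of −0.62 ± 0.24 (edgeR unadjusted p = 0.02, adjusted p = 0.54). Asah1 had a log2 fold of −0.68 ± 0.33 after saline (edgeR unadjusted p = 0.055, adjusted p = 0.68). After synuclein Arsb, a sulfatase of dermatan sulfate, had 27.1, 69.1 and 39.1 CPM at 12 weeks and 26.6, 21.2 and 28.6 CPM at 7 weeks. The value of 69.1 came from replicate 2, and the times overlapped, with a log2 fold of 0.82 ± 0.41 (edgeR adjusted p = 0.68). Ctsd had a log2 fold of −0.55 ± 0.28 after synuclein, set against a 7-week group that held the value of 951 CPM. Fuca1 had 0.44 ± 0.25 after synuclein (edgeR adjusted p = 0.74).

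Markers of other cells were lower at 12 weeks along with Lipa, Ctsh, Ids and Idua. All 12 endothelial markers had folds below 0 over both treatments, with a median log2 fold of −0.29, and 1 was called lower in edgeR. After saline all 12 were below 0, with a median of −0.60, and after synuclein 7 of 12 were, with a median of −0.02. Their sums were 11221 to 18367 CPM in synuclein libraries and 9998 to 13901 CPM in saline libraries at 12 weeks, and 14213 to 22742 CPM in synuclein libraries and 15756 to 25765 CPM in saline libraries at 7 weeks. Of the 17 microglial markers, 14 were below 0 over both, with a median of −0.77. That median was −1.43 after synuclein and 0.12 after saline. The part of these cells in the lower values was not tested.

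By role, the membrane proteins had a median log2 fold of 0.44 for 12 over 7 weeks after synuclein, with all 7 above 0 (0.13 to 0.90), and 0.32 after saline, with 4 of 7 above 0. The cathepsins had medians of −0.26 after synuclein and −0.17 after saline, and neither direction held in every setting. After synuclein the cathepsin median was 0.10 without replicate 3 at 7 weeks, and after saline it was 0.02 without replicate 1 at 7 weeks. The sphingolipid hydrolases and activators had 0.25 after synuclein and 0.29 after saline, and the hydrolases of glycosaminoglycans and glycoprotein sugars 0 after synuclein and 0.15 after saline. Over the other settings the membrane proteins ran from 0.22 to 0.57 after synuclein and 0.10 to 0.50 after saline, and the sphingolipid group from 0.09 to 0.44 after synuclein and 0.18 to 0.47 after saline. The glycosaminoglycan and glycoprotein group ran from −0.09 to 0.35 after synuclein and −0.03 to 0.24 after saline. These groupings rest on folds that did not pass the test, and the treatments were not compared by role.

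**Figure D5:**
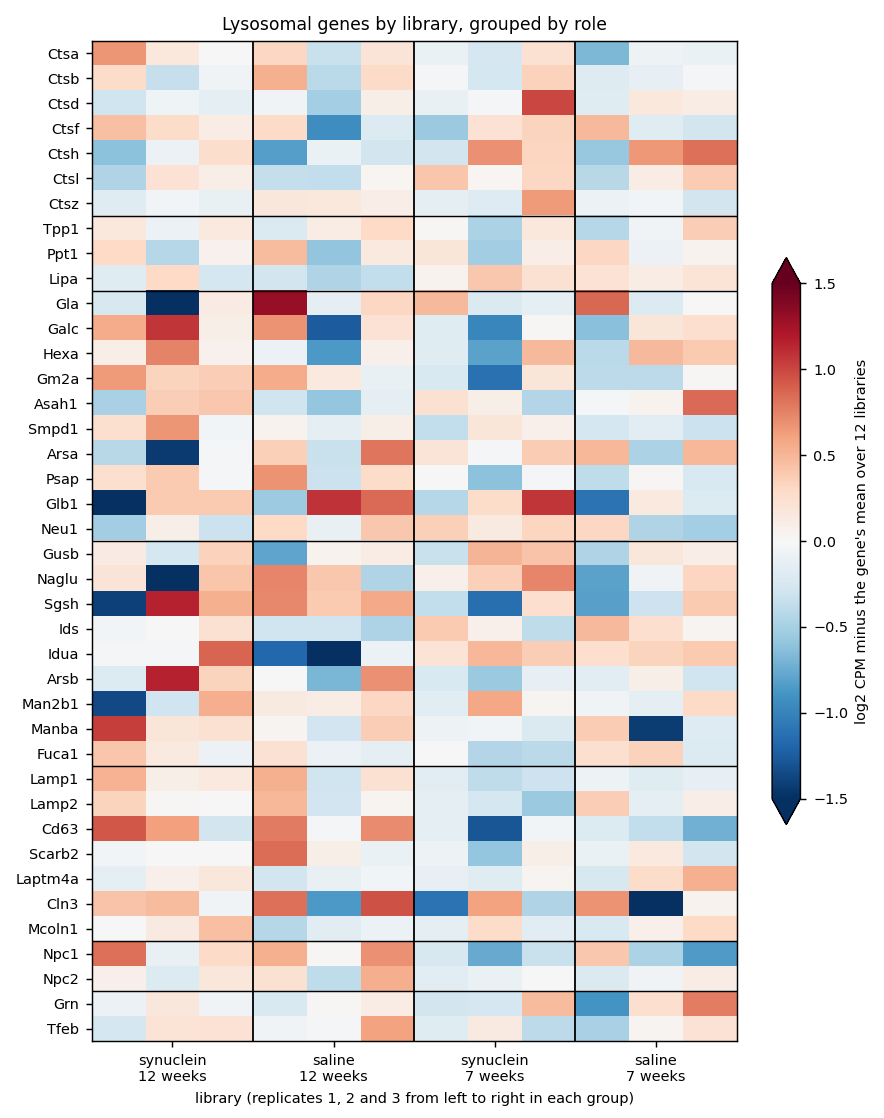
Log2 CPM of each gene in each library minus that gene's mean over the 12 libraries (red higher, blue lower, colours end at 1.5 in either direction). Columns are replicates 1, 2 and 3 of the synuclein and saline groups at 12 weeks and then at 7 weeks, and rows are grouped by role. Single libraries stand out in single genes, such as Ctsd in replicate 3 of the synuclein group at 7 weeks, and no block of libraries is uniformly red or blue.

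Spread over the libraries differed from gene to gene, and was not tested against other genes. The ratio of the highest to the lowest library was 2.67 at the median of the 40 genes, beside 4.7 over all genes tested. It ran from 1.75 for Laptm4a to 10.8 for Gla. Glb1, β-galactosidase, spanned 8.03-fold and Naglu, a glucosaminidase of heparan sulfate, 6.3-fold, and like Gla they were among the genes of low level. Ratios of 2 or less were found for Lamp1, Npc2, Ids, Lipa and Mcoln1, among others.

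For the 10 genes with the longer E-box in the promoter, the median log2 fold of synuclein over saline at 12 weeks was −0.17 with 3 of 10 above 0, beside 0.17 with 16 of 26 above 0 for the other genes looked up. At 7 weeks it was −0.06, beside −0.05. The difference between the times was −0.22 at the median, beside 0.15. For 12 over 7 weeks the median was −0.14 after synuclein, beside 0.15, and 0.33 after saline, beside 0.09. Over both treatments it was 0.09, beside 0.06. The groups thus lay on opposite sides of 0 in 3 of these 6 comparisons, which share libraries. All 3 use the synuclein libraries at 12 weeks, of which replicates 1 and 2 lay apart. For synuclein over saline at 12 weeks the median standard error of a gene was 0.45 with the longer form and 0.29 without. The medians are smaller than this error of a single gene, and no error of the medians was computed. Arsa, Cln3, Ctsa, Glb1 and Sgsh share a locus with another gene. No range over other settings is given for this split. The groups were not tested against each other.

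Of 64 other genes of the lysosome listed alongside (further hydrolases, transporters and positioning factors), 61 were in the tables and tested. For synuclein against saline none of the 61 was called at 7 or 12 weeks in edgeR, nor in the difference between the times. At unadjusted p under 0.05 there was 1 of 61 higher at 7 weeks, against 1.01% of all genes, and 0 lower, against 0.633%. The higher gene was Ctss, with 43.4, 14 and 103 CPM in synuclein libraries and 22.6, 17 and 30.7 CPM in saline libraries at 7 weeks. Its highest value was in synuclein replicate 3, the library with the high microglial and pericyte sums, and the part of those cells was not tested. At 12 weeks 2 were higher, against 2.27%, and 1 was lower, against 3.3%. For 12 over 7 weeks over both treatments 3 of the 61 were called, 2 higher and 1 lower, against 0.834% of all genes in either direction. At unadjusted p under 0.05, 8 of the 61 were higher, against 4.53% of all genes, and 7 lower, against 5.29%. After saline 6 were higher, against 3.49%, and 4 lower, against 3.92%. After synuclein 6 were higher, against 3.31%, and 3 lower, against 4.28%. None was called within a treatment. Abca2, a lipid transporter of oligodendrocyte lysosomes, had 282, 255 and 220.2 CPM at 12 weeks and 93.1, 128 and 153 CPM at 7 weeks after synuclein. After saline it had 301, 155 and 235 CPM at 12 weeks and 129, 112 and 85.2 CPM at 7 weeks. The times did not overlap in either treatment, and Abca2 rose by a log2 fold of 1.05 ± 0.19 over both (edgeR adjusted p = 0.023). Its call was lost when saline replicate 2 or 3 or synuclein replicate 1 at 7 weeks, or saline replicate 1 or 3 at 12 weeks, was left out (edgeR adjusted p = 0.05 to 0.063), while the fold stayed between 0.95 and 1.18 in all other settings.

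Litaf, a membrane protein of late endosomes, rose by 0.95 ± 0.18 over both (edgeR adjusted p = 0.026). Its libraries held 292 to 502 CPM at 12 weeks and 132 to 230.4 CPM at 7 weeks, without overlap. The call was lost without saline replicate 2 or 3 or synuclein replicate 1 or 2 at 7 weeks, or without saline replicate 1 or 3 or synuclein replicate 1 at 12 weeks (edgeR adjusted p = 0.056 to 0.077). Atp13a2, the lysosomal polyamine pump mutated in an inherited parkinsonism, had 43.7, 38.4 and 37.4 CPM at 12 weeks and 127, 97.3 and 67.1 CPM at 7 weeks after synuclein. After saline it had 53.1, 45.3 and 64.6 CPM at 12 weeks and 124, 77.6 and 60.6 CPM at 7 weeks, and these overlapped. The log2 fold over both was −0.98 ± 0.22 (edgeR adjusted p = 0.045). That call was lost when any 1 of 10 libraries was left out (edgeR adjusted p = 0.056 to 0.13) and held only without synuclein replicate 3 at 7 weeks or synuclein replicate 2 at 12 weeks. Abca2 and Litaf moved with the oligodendrocyte and ependymal markers given above, and the part of those cells was not tested. Atp13a2 moved with the markers of neurons. Over both treatments 13 of 14 dopaminergic markers were below 0, with a median log2 fold of −1.25. All 12 general neuron markers were also below 0, with a median of −1.02. The part of neurons in the Atp13a2 value was not tested either. Of the 61 genes, the median log2 fold over both treatments was 0.03, beside 0.06 for the 40.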

How the data were processed

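RNA was measured in 12 libraries of hKO1-sorted mouse midbrain cells, with 3 libraries in each of 4 groups. Per the submitters' processing notes, the tools were TopHat2 2.0.13, Bowtie2 2.2.3 and Cufflinks 2.2.1. No source used here names the genome build. The authors deposited estimated counts, scaled per library, and FPKM for 24346 genes. In each library 98.8% to 98.9% of the deposited estimated counts were whole multiples, within 0.02 fragments, of a step of 0.6852 to 1.298, which gives 2506730 to 5533324 fragments. Cufflinks can split fragments between genes at 1 locus, so members at shared loci are less certain.

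After rounding, the counts entered the quasi-likelihood test of edgeR 4.0.16 (R 4.3.3), with TMM scaling and filterByExpr, which kept 17380 genes. The model held 1 mean for each of the 4 groups, which left 8 residual degrees of freedom, and the common coefficient of biological variation was 46.6%. The p-values were adjusted by Benjamini-Hochberg across these 17380 genes, and a gene was called under 0.05. Errors of log2 folds are standard errors, and 95% intervals use a t quantile. The members, gene lists, contrasts and alternatives were chosen with earlier results of these data known. Named members are the 14 with the smallest p over the 6 contrasts, the member with the highest FPKM in each of the 7 roles, and Tfeb and Mcoln1. Other settings included DESeq2 1.42.0, limma 3.58.1, other scalings and filters, FPKM on a log2 scale with a pseudocount of 1 or 0.1, and each library left out in turn. The scripts were tested on simulated data. Promoter sequences come from RefSeq (GRCm38.p6). No pairing of libraries by replicate number was seen or modelled in the main fit, as the closing section describes.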

Additional observations from a re-analysis of the deposited data

How the results depend on the processing

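Up to 25 other settings were tried for each comparison. No setting called any of the 40 genes for synuclein against saline at either time, for the difference between the times, or for 12 against 7 weeks within a treatment. Over both treatments DESeq2 called 1, Cd63, and leaving out 1 library at a time called 0 to 1. The median log2 fold over the 40 genes ranged, with 1 library left out, from −0.12 to 0.08 for synuclein against saline at 7 weeks (0.08 without saline replicate 3), from 0.05 to 0.22 for the difference between the times (0.20 without saline replicate 2 and 0.22 without synuclein replicate 3 at 7 weeks), from 0.04 (without replicate 3) to 0.33 (without replicate 2) for 12 against 7 weeks after saline, and from 0.05 to 0.18 over both treatments (0.18 without synuclein replicate 3 at 7 weeks). Upper-quartile scaling gave −0.07 for the difference between the times, in place of 0.08. Counts at unadjusted p under 0.05 were small and moved: at 12 weeks, 0 to 2 higher and 0 to 2 lower; at 7 weeks, 0 to 1 each; for the difference, 0 to 2 each; after saline, 0 to 4 higher and 1 to 5 lower; after synuclein, 0 to 5 higher and 0 to 2 lower; over both treatments, 3 to 7 higher and 0 to 3 lower. Intervals within 2-fold were found for as few as 13 genes at 12 weeks and 1 for the difference.

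For 12 against 7 weeks over both treatments, the folds of Abca2, Litaf and Atp13a2 kept their sign in all settings. They passed the threshold in DESeq2 but not on FPKM (adjusted p of 0.056 to 0.15), and Atp13a2 did not pass in limma-voom (0.062). Without synuclein replicates 1 and 2 at 12 weeks, a single library was left in that group. The log2 folds were then 0.95, 0.89 and −1.03.

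Folds near 0 changed sign, in part in settings that left a single synuclein library at 12 weeks. At 12 weeks, leaving out synuclein replicates 1 and 2 gave log2 folds of 0.01 for Ctsd, −0.04 for Lamp1, −0.01 for Grn, 0.01 for Tfeb and −0.09 for Fuca1. Leaving out these and synuclein replicate 3 at 7 weeks, a setting chosen after the data had been seen, gave the same values for these 5 genes, and at 7 weeks 0.01 for Mcoln1, −0.10 for Ctsd and 0.03 for Tfeb. FPKM with either pseudocount gave 0.03 for Ctsd, 0.04 for Psap and 0.01 for Ppt1 at 12 weeks, and no filter gave 0.01 for Ctsd. Upper-quartile scaling gave −0.04 for Grn at 12 weeks, and 0.05 for Psap and 0.02 for Npc2 at 7 weeks. The fit on only the groups compared gave 0.01 for Psap at 7 weeks. With 1 library left out, the 12-week folds ran from −0.14 to 0.12 for Ctsd, −0.09 to 0.29 for Lamp1, −0.23 to 0.22 for Psap, −0.04 to 0.15 for Grn, −0.25 to 0.12 for Tfeb, −0.33 to 0.09 for Npc2 and −0.27 to 0.20 for Ppt1. The 7-week folds ran from −0.22 to 0.08 for Mcoln1, −0.11 to 0.56 for Ctsd, −0.10 to 0.17 for Psap, −0.50 to 0.25 for Grn, −0.26 to 0.08 for Tfeb, −0.12 to 0.05 for Npc2, −0.27 to 0.04 for Ppt1 and −0.03 to 0.12 for Idua. Folds that were not called also shrank or grew without synuclein replicates 1 and 2 at 12 weeks: Mcoln1 to 0.68 and Asah1 to 0.75 at 12 weeks, and, for 12 against 7 weeks after synuclein, Cd63 to 0.12, Fuca1 to 0.18 and Lipa to −0.48. Except where a left-out library is named, the cause was not tested.

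The labels give the groups the same replicate numbers. Deviations from group means correlated at −0.06 to 0.11 over 18 same-numbered pairs and at −0.16 to 0.11 over other pairs. No clear pairing by number was seen, which does not show that the libraries were unpaired. With a replicate block, 0 of the 40 genes were called in each comparison, and the median log2 folds were −0.04 at 7 weeks, 0.05 at 12 weeks, 0.07 for the difference, 0.18 after saline, 0.14 after synuclein and 0.06 over both treatments.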
